A study of Arabidopsis thaliana with 16 samples.

Results

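The response of Arabidopsis thaliana seedlings to the steroid dexamethasone (DEX) was compared between far-red light and darkness. Signals were read on Affymetrix ATH1 arrays, where a transcript is measured by a group of short oligonucleotides called a probe set. For every probe set the DEX change in darkness (DEX minus mock, in mean log2 signal) was subtracted from the DEX change in far-red, and the result is called the difference of responses. A positive value means that the response was more positive in far-red, and a negative value that it was more positive in darkness. All 16 arrays of the series entered, and 22746 of the 22810 probe sets were tested, the other 64 being the manufacturer's controls. No measured value was used to choose them.

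Seedlings of all 4 groups belonged to the same transgenic line, FHY3p:FHY3-GR fhy3-4, in which FHY3 fused to part of the glucocorticoid receptor (GR) is expressed from the FHY3 promoter in a mutant of FHY3. They were 4 days old and had grown in the dark or in continuous far-red light. In each light, 4 arrays came from seedlings given 10 µM DEX for 2 h and 4 from seedlings given the same volume of ethanol, called mock. No array comes from seedlings without the fusion protein, so an action of DEX itself and one of FHY3-GR cannot be told apart, and the level of FHY3 was not analysed here. RNA was taken from seedlings, in which fewer cells of a type and less RNA per cell cannot be told apart.

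FHY3 is a transcription factor that grew out of a transposase and is known for its part in far-red signalling. With its relative FAR1 it switches on FHY1 and FHL, whose products carry the photoreceptor phytochrome A into the nucleus. Phytochrome A is the receptor through which seedlings sense continuous far-red light, and in darkness it stays inactive in the cytosol while the seedling grows long and pale. A GR fusion protein is held in the cytoplasm until a steroid such as DEX binds it, after which it can enter the nucleus.

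Within a group, correlations between arrays ran from 0.9956 to 0.9981, no pair of arrays held identical values, and array medians lay between 6.60 and 6.68 on the log2 scale. The signal at the 3′ end minus that at the 5′ end, a measure of RNA integrity on control transcripts, changed with DEX by -0.06 in darkness and by 0.08 in far-red for ubiquitin, a difference of 0.15. That of actin differed by 0.04 and that of GAPDH by -0.09. The part of RNA integrity in the differences below was not tested. Dark mock replicate 2 stood apart from the other dark mock arrays in many of the genes below, and counts without it are given where they moved. Far-red mock replicate 4 moved some counts more: 515 positive differences were called without it, against 482 without dark mock replicate 2.

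Most called differences came from transcripts that fell with DEX in darkness alone. The difference was called for 488 probe sets (2.15% of those tested), 386 of them positive (1.70%) and 102 negative (0.448%), at an adjusted p under 0.05 in limma. Within darkness 1342 probe sets were called (5.90%), of which 809 fell (3.56%) and 533 rose (2.34%). Within far-red 236 were called (1.04%), of which 27 fell (0.119%) and 209 rose (0.919%). The DEX and mock arrays did not overlap for 10.6% of probe sets in darkness and 6.41% in far-red. Over all 13355 genes with a probe set of their own the median difference was -0.03 on the log2 scale, and the genes with a called difference numbered 247 (1.85%), with 202 positive (1.51%) and 45 negative (0.337%). Of these genes 5.13% were called in darkness (2.07% rose and 3.06% fell) and 0.951% in far-red (0.831% rose and 0.120% fell). The DEX and mock arrays of a gene were apart for 9.71% in darkness and 5.94% in far-red, and the 4 dark DEX arrays were above all others for 2.00%. These shares are the background for all gene lists below. A listed gene was counted as measured only where a probe set was paired with it alone in the annotation used. Lists can therefore cover a small part of their function, such as 3 of 27 listed light signalling genes and 9 of 43 listed nuclear photosynthesis genes. Some families were listed by name, so members without a matching name are missing.

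The 488 probe sets were sorted by their calls in each light. They hold 344 that fell in darkness and were not called in far-red, 64 that rose in darkness and were not called in far-red, 24 that rose in far-red and were not called in darkness, and 5 that fell in far-red and were not called in darkness. A further 14 rose in both lights, 6 had calls in opposite directions, and 31 were called in neither light alone. None was lower in both lights. The classes rest on the same arrays as the calls, so their levels are given as a description. A call in a single light did not by itself show a difference: of 1200 probe sets called in darkness and not in far-red, 408 (34.0%) had a called difference, and of 94 called in far-red and not in darkness, 29 (30.9%) did. Of the 126 probe sets that rose in both lights, 14 had a called difference.

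**Figure D1:**
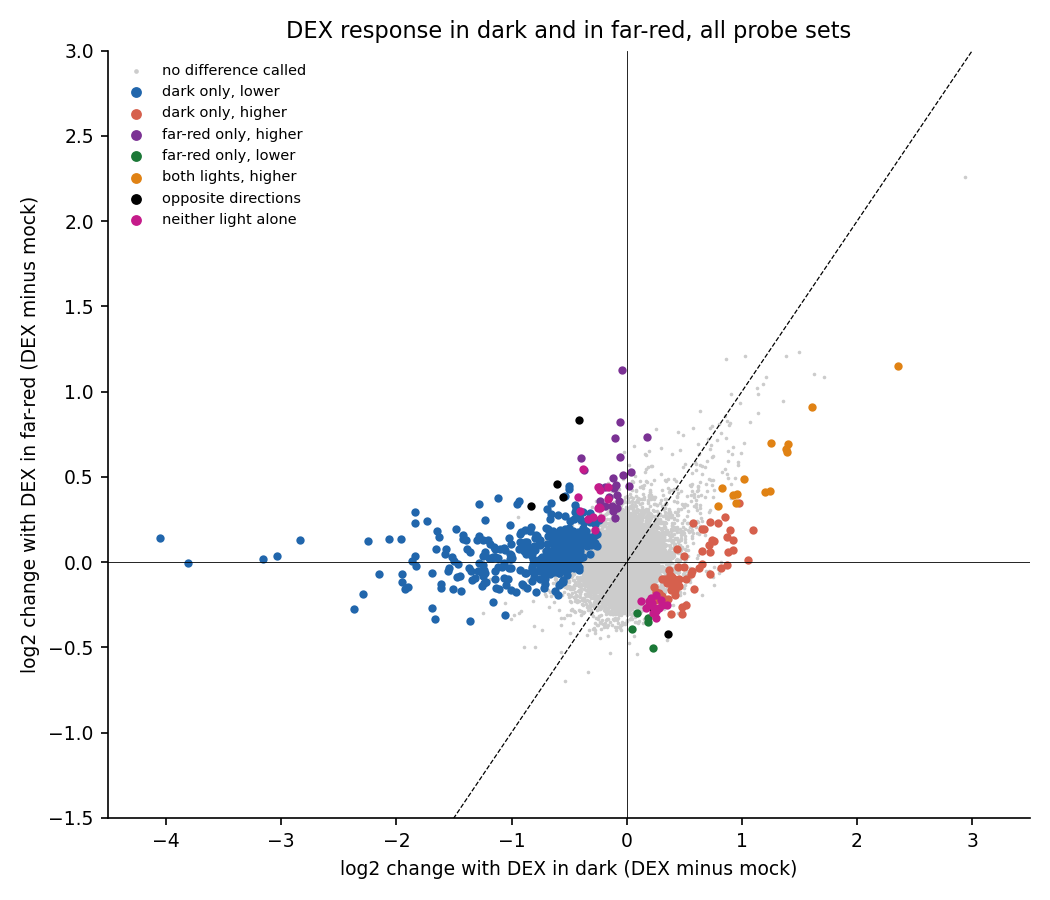
Each point is a probe set, with its log2 change with DEX in darkness on the horizontal axis and in far-red on the vertical axis. Colours mark the response classes of the 488 probe sets with a called difference, grey the rest, and the dashed line equal responses. The largest class, 344 probe sets, extends to the left at a far-red change near 0.

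In the class that fell in darkness alone, the dark DEX arrays stood apart from all other arrays. Over the 344 probe sets the median log2 change with DEX was -0.70 in darkness and 0.05 in far-red, and the differences ran from 0.36 to 4.19. The 95% interval of the far-red change lay within 1.5-fold in either direction for 328 of them. The class leaves out far-red calls, and the median standard error of a DEX change was 0.0843, so the sorting favours such intervals. The share over all probe sets was not counted. In 264 of the 344 all 4 dark DEX arrays read below all 12 other arrays, which was so for 2.80% of all probe sets. The calls that define the class favour this order, so it is no further evidence. Median signals were 8.39 in dark mock, 7.49 in dark DEX, 8.61 in far-red mock and 8.71 in far-red DEX. The median deviation of the class from the mean of all arrays ran from -0.72 to -0.61 over the 4 dark DEX arrays. It was between 0.14 and 0.26 in dark mock replicates 1, 3 and 4 and -0.14 in replicate 2, so replicate 2 read between the other mock arrays and the DEX arrays. Without dark mock replicate 2 the class held 436 probe sets, and without far-red mock replicate 4 it held 450.

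**Figure D2:**
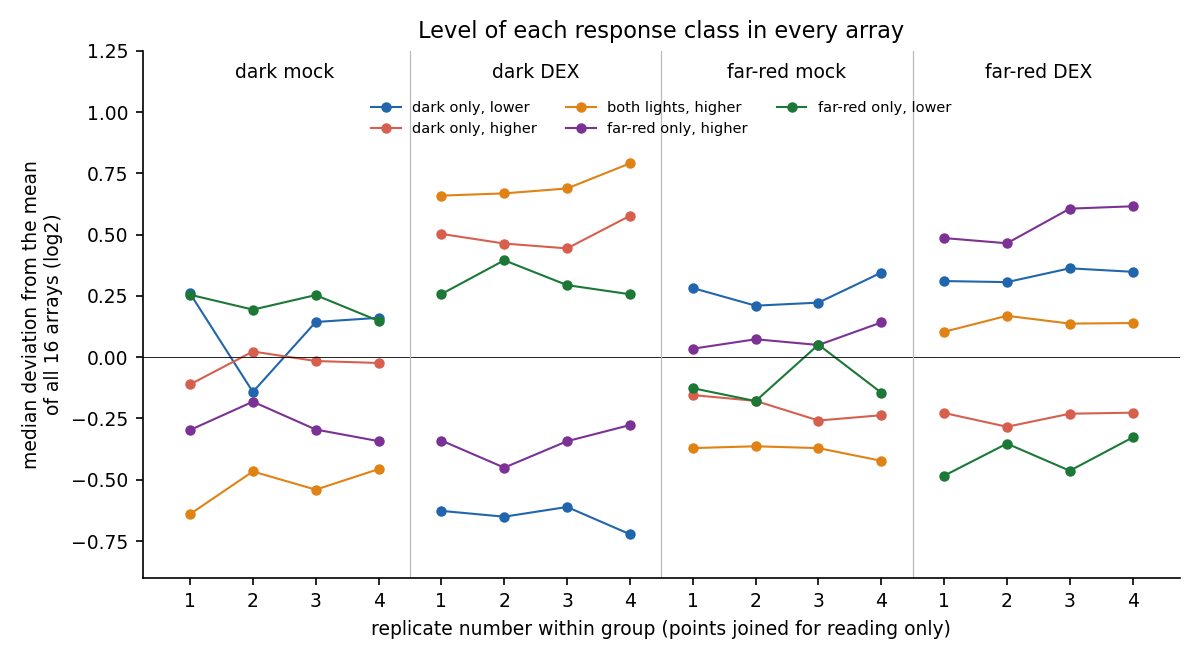
For 5 response classes the median deviation of their probe sets from the mean of all 16 arrays (log2) is shown for every array, in 4 panels by group, with the replicate number on the horizontal axis and lines joining points for reading only. The class lower in darkness alone sits between -0.72 and -0.61 in the dark DEX arrays, and dark mock replicate 2 is the mock array nearest to them.

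AT1G20310 had the most positive difference of all named genes. Its signals were 7.17, 6.61, 7.15 and 7.13 in dark mock and 4.82, 4.77, 5.23 and 4.98 in dark DEX. Under far-red they were 6.75, 6.38, 6.76 and 6.53 in mock and 6.73, 6.72, 6.75 and 6.79 in DEX. Every dark DEX array read below all others, and the far-red groups overlapped. It fell 4.17-fold in darkness, and the difference was 2.20 ± 0.17 on the log2 scale (standard error, adjusted p = 3.11e-07), with a far-red interval of -0.11 to 0.39.

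BGLU19 encodes a beta-glucosidase, an enzyme class that frees compounds from their sugar conjugates. It read 7.59, 7.06, 7.59 and 6.97 in dark mock and 5.66, 5.30, 5.25 and 5.67 in dark DEX, against 8.04, 8.13, 8.07 and 8.60 in far-red mock and 8.41, 8.57, 8.45 and 8.60 in far-red DEX. The dark DEX arrays were again lowest with no overlap, and both far-red groups lay above both dark groups. The difference was 2.13 ± 0.20 (adjusted p = 4.54e-06), from a 3.57-fold fall in darkness.

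AT5G42200 was the next in size. It read 10.88, 9.77, 10.45 and 10.53 in dark mock, 8.03, 8.04, 8.54 and 7.87 in dark DEX, 10.78, 10.75, 10.99 and 11.20 in far-red mock, and 10.68, 10.79, 10.78 and 10.73 in far-red DEX. Dark mock replicate 2 was the lowest array outside the dark DEX group, and it was still above all 4 dark DEX arrays. The gene fell 4.89-fold in darkness and its difference was 2.11 ± 0.24 (adjusted p = 3.85e-05).

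Both called genes among 17 measured genes with a defensin or thionin name belonged to the same class. Defensins and thionins are small antimicrobial proteins, and genes without such a name in the annotation were not counted. PDF2.1 read 7.33, 6.71, 7.18 and 6.66 in dark mock and 5.21, 5.17, 5.20 and 4.95 in dark DEX, while its far-red arrays lay between 7.34 and 8.39 with the groups overlapping. Its difference was 2.07 ± 0.25 (adjusted p = 7.40e-05). LCR67, also named PDF1.1, had means of 8.02 ± 0.38 in dark mock, 6.53 ± 0.17 in dark DEX, 8.26 ± 0.47 in far-red mock and 8.45 ± 0.32 in far-red DEX (SD, n = 4 each), a difference of 1.68 ± 0.28 (adjusted p = 0.00158). The median difference over the 17 genes was -0.07, and 11.8% had a called difference, against 1.85% of all genes.

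**Figure D3:**
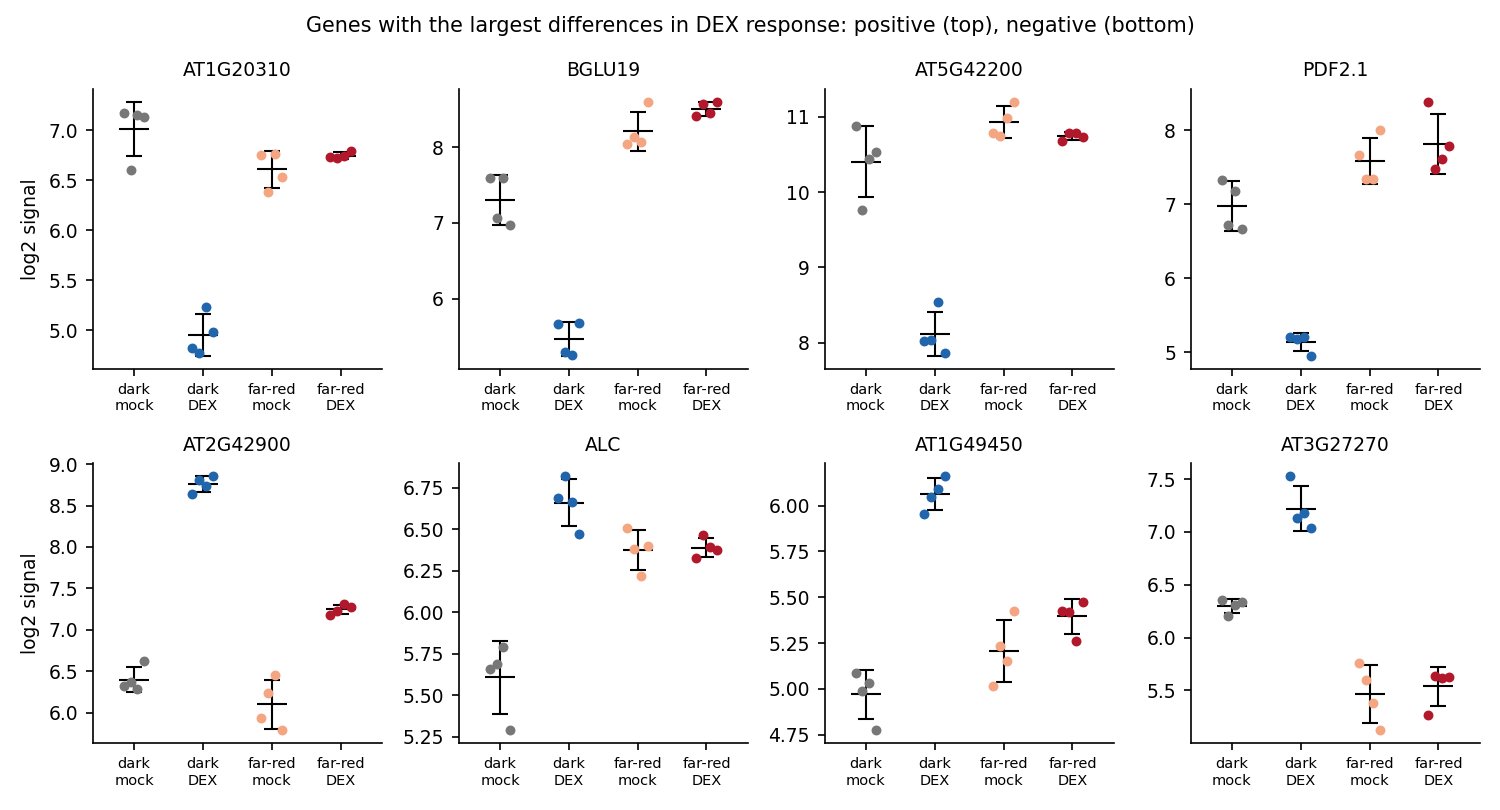
Log2 signals of single arrays (points) with mean and SD of 4 arrays (bars) are shown by group for the 4 genes with the most positive and the 4 with the most negative difference of responses. In the upper row the dark DEX arrays lie below all others, from 4.77 to 5.23 for AT1G20310. In the lower row they lie above the dark mock arrays, from 8.64 to 8.86 for AT2G42900.

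A further 7 loci complete the 12 largest positive differences among genes with a probe set of their own. The annotation used here gives these loci no symbol. The largest difference of the class, 4.19, belongs to a probe set that does not represent a gene here and is not named. The 7 loci AT2G28490, AT4G02170, AT2G43590, AT2G15010, AT2G41730, AT2G34400 and AT4G33140 had differences of 1.62 to 1.88, with falls in darkness of 2.97-fold to 3.88-fold. Their far-red changes lay between -0.11 and 0.18, and all 7 had every dark DEX array below the 12 others. The probe set of AT2G41730 is of a type that can bind related transcripts too, so its values are uncertain.

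Genes of the low-oxygen response held a larger share of called differences than any other list described here. The list was written with earlier results of these data known, so its share is a description and no independent test. When oxygen runs short plants switch to fermentation and raise a common set of transcripts, many of them of unknown function, under ERF factors that oxygen normally makes unstable. Of 49 listed genes 24 were measured, and 18 of these (75.0%, against 1.85% of all genes) had a called difference, all positive. In darkness 22 of the 24 fell (3.06% of all genes did) and in far-red none fell and 1 rose. Median log2 changes were -0.81 in darkness and 0.02 in far-red, with a median difference of 0.83. In 18 of the 24 every dark DEX array read below the 12 others, as in 2.48% of all genes. The count with a called difference ran from 16 to 22 over alternatives that leave out 1 array, with 22 without dark mock replicate 2.

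PDC2 encodes a pyruvate decarboxylase, the first enzyme of ethanol fermentation. Its signals were 10.99, 10.37, 10.82 and 10.75 in dark mock and 9.44, 9.61, 9.64 and 9.29 in dark DEX, and the 8 far-red arrays lay between 11.43 and 11.64. The far-red groups overlapped almost fully, and the dark DEX arrays were lowest. PDC2 fell 2.36-fold in darkness (difference 1.19 ± 0.14, adjusted p = 6.73e-05), with a far-red change of -0.04 and an interval of -0.26 to 0.17.

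AT3G23170 (difference 1.35 ± 0.17, adjusted p = 0.000102) and AT5G42200 belong to the same list. The 6 measured members whose difference was not called were AT4G27450, AT1G19530, AT1G33055, AT3G03270, AT4G17670 and AT3G29970. Of these, AT4G17670 was the 1 list member that rose in far-red, by 0.46 on the log2 scale, and its dark change was -0.11. The other 2 measured genes of the list of glycolysis and fermentation enzymes, beside PDC2, had no called change in either light.

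Of 8 measured calmodulin-like and calcium-binding genes 3 (37.5%, against 1.85% of all genes) had a called difference, all positive. CML38, a calmodulin-like calcium sensor that is also on the low-oxygen list, read 11.62, 10.76, 11.19 and 11.15 in dark mock and 9.85, 9.95, 9.89 and 9.36 in dark DEX, and between 11.78 and 12.15 on the far-red arrays. It fell 2.67-fold in darkness with no overlap between the dark groups, and its difference was 1.55 ± 0.20 (adjusted p = 0.000132). The gene AT1G76640, whose synonym is CML39, fell by 0.50 in darkness and stood at 0.44 in far-red (interval 0.14 to 0.75, not called), a difference of 0.94 ± 0.21 (adjusted p = 0.0147). CML37 was called for the difference alone (0.61 ± 0.15, adjusted p = 0.0382), with changes of -0.17 and 0.44 that were not called, and it lost the call in 14 of 25 alternative settings (adjusted p up to 0.0891 with array weights). Its dark signals, 3.88 and 3.72 on average, were dimmer than the lower quartile of the arrays (4.38 to 4.50), where no detection call tells signal from background. CML42, of the same list, fell in darkness by 0.41 without a called difference.

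STZ, the zinc finger repressor ZAT10, fell 1.76-fold in darkness and stood at 0.02 in far-red (difference 0.84 ± 0.17, adjusted p = 0.00845). With CML38 it made up the 2 called genes of 3 measured touch and rapid stress genes (1.85% of all genes were called). The other genes of the 21 on that list were not measured. WRKY22, a transcription factor of defence signalling, read 9.44, 8.74, 9.02 and 9.16 in dark mock, 8.56, 8.32, 8.44 and 8.43 in dark DEX, 10.45, 10.27, 10.39 and 10.72 in far-red mock, and 10.68, 10.71, 10.78 and 10.79 in far-red DEX. Its dark groups did not overlap, and its far-red DEX arrays overlapped the mock arrays only at mock replicate 4. Its difference was 0.94 ± 0.16 (adjusted p = 0.00174), and that of WRKY6, known from leaf ageing and phosphate supply, was 0.68 ± 0.11 (adjusted p = 0.00149). These were the called genes among 7 measured WRKY factors (28.6%, against 1.85% of all genes), whose median difference was -0.11.

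The plant U-box ubiquitin ligases PUB19, PUB22 and PUB23, which mark proteins for breakdown and are known as brakes on drought and immune responses, were taken up after their values had been seen. PUB22 had all 4 dark DEX arrays (9.75 to 9.90) below dark mock (10.17 to 10.49) and all 4 far-red DEX arrays (11.04 to 11.07) above far-red mock (10.76 to 10.86). It fell by 0.49 in darkness, while the far-red change of 0.24 was not called (adjusted p = 0.131), and the difference was 0.73 ± 0.10 (adjusted p = 0.000145). PUB19 differed by 0.97 ± 0.19 (adjusted p = 0.00529) and PUB23 by 0.70 ± 0.16 (adjusted p = 0.0172). Of 9 measured genes of the family 3 had a called difference (1.85% of all genes did) and 4 fell in darkness (3.06% of all genes did).

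Genes of seed storage and of late embryogenesis were split. Storage proteins fill the maturing seed and are used up by the young seedling, and late embryogenesis abundant (LEA) proteins guard cells against drying. Of 23 listed seed storage genes 6 were measured, and 2 of these had a called difference (1.85% of all genes did). They were AT2G28490 (1.88 ± 0.22, adjusted p = 4.56e-05) and PAP85, a vicilin-like storage protein gene (1.42 ± 0.34, adjusted p = 0.0309). AT2G28490 read 7.34 to 8.01 in dark mock, 5.68 to 5.80 in dark DEX and 7.89 to 8.76 on the far-red arrays, so its dark DEX arrays were tight and far below the rest. PAP85 spread more, with 4.96 ± 0.75 in dark DEX (SD, n = 4), and its call was lost in 9 of 25 alternative settings (adjusted p up to 0.108 with a trended and robust variance prior). Its dark DEX replicate 4 read 4.16, under the lower quartile of the arrays (4.38 to 4.50). The oleosin gene OLEO3, which encodes a coat protein of oil bodies, had changes of -0.09 in darkness and -0.27 in far-red and no call.

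Among 15 measured LEA genes 6 fell in darkness (3.06% of all genes did) and 4 had a called difference (1.85% of all genes did), all positive. The median changes were -0.42 in darkness and -0.04 in far-red. M17 read 8.88, 8.53, 8.74 and 8.36 in dark mock and 7.21, 7.66, 6.63 and 6.82 in dark DEX, and 9.16 to 10.25 on the far-red arrays, where DEX and mock overlapped. The dark groups did not overlap and the far-red arrays were highest. Its difference was 1.5 ± 0.31 (adjusted p = 0.0103, and 0.0572 with the trended and robust prior). LEA4-5 differed by 0.61 ± 0.13 (adjusted p = 0.0106). LEA18 (0.65, adjusted p = 0.037) and AT3G17520 (0.62, adjusted p = 0.0347) lost their calls in 11 and 13 of 25 settings, where adjusted p reached 0.0882 (without far-red DEX replicate 3) for the former. For the latter it reached 0.0823, when replicate 1 of the far-red mock arrays was left out.

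**Figure D4:**
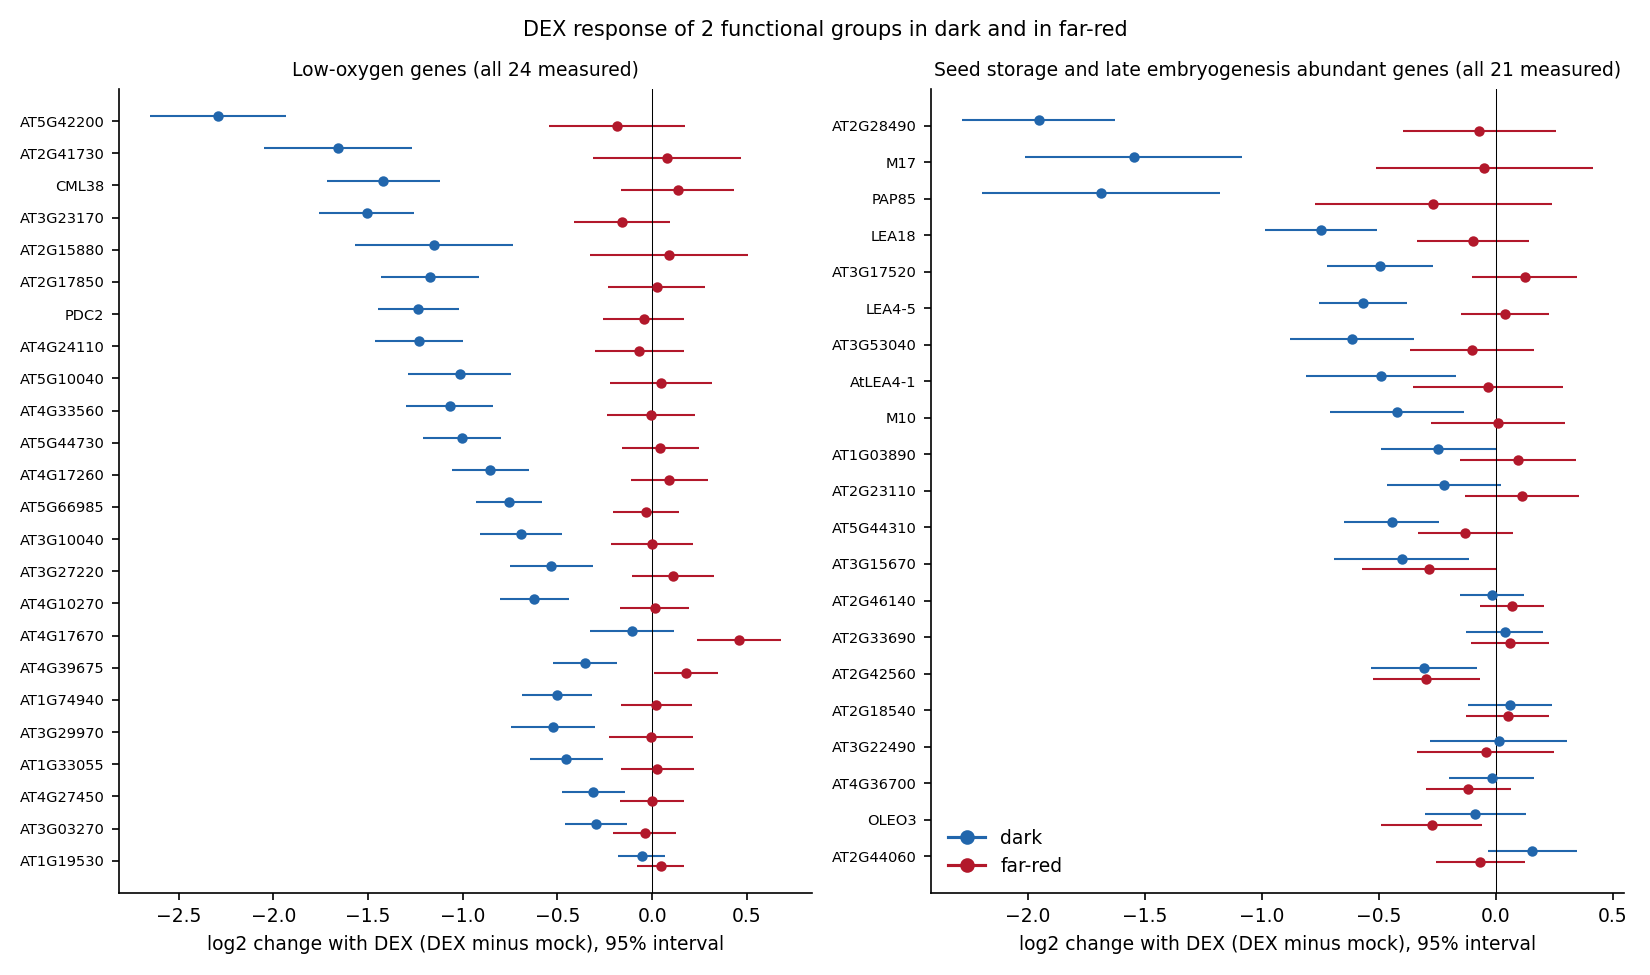
Log2 changes with DEX (points) and their 95% intervals are shown in darkness (blue) and far-red (red) for all 24 measured low-oxygen genes on the left and all 21 measured seed storage and LEA genes on the right. In darkness 22 of the 24 low-oxygen genes fell, while their far-red changes run from -0.19 to 0.46. AT2G28490, M17 and PAP85 lead the right panel.

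Enzymes of sugar conjugates, walls and hormones gave single called genes. With 1.85% of all genes called, 1 or 2 calls in a list do not show that the list as a whole responded. UGT73B4, a glycosyltransferase that attaches sugar to small molecules, fell 1.66-fold in darkness (difference 0.76 ± 0.14, adjusted p = 0.00387). UGT71C1 (0.41, adjusted p = 0.0247), the other of 2 called among 52 measured UGT genes, lost its call in 5 of 25 settings. BGLU40 (0.47, adjusted p = 0.0426) was the second of 22 beta-glucosidase genes with a call and lost it in 14 settings. The peroxidase gene PRX52 (0.67, adjusted p = 0.0426), 1 of 7, lost its call in 15. Their adjusted p reached 0.0645, 0.0955 and 0.103 in turn.

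Expansins loosen cell walls. Among 19 genes listed by an expansin or expansin-like name, AT4G30380 was the 1 called. It is on the list through its synonym EXLB2 alone, and a wall-loosening role of its product was not examined. It had all dark DEX arrays (7.54 to 8.14) below dark mock (8.77 to 9.42), and its far-red arrays (8.69 to 9.04) overlapped. The difference was 1.28 ± 0.18 (adjusted p = 0.000325). GAUT15, a galacturonosyltransferase gene of the family that builds pectin (difference 0.85 ± 0.13, adjusted p = 0.000599), and TIL, a lipocalin gene known for heat and cold tolerance (0.89 ± 0.15, adjusted p = 0.00118), fell by 0.75 and 0.76 in darkness. Both were picked after their values had been seen.

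WES1, also known as GH3.5, encodes an enzyme that ties auxin to amino acids. It was the 1 called gene of 14 auxin response genes, with a fall of 0.62 in darkness, -0.03 in far-red and a difference of 0.60 ± 0.14 (adjusted p = 0.024). The call was lost in 7 of 25 settings, most without far-red DEX replicate 3 (adjusted p = 0.0604).

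GID1A, a gibberellin receptor gene and the 1 called of 3 measured, read 8.94, 8.79, 9.04 and 9.05 in dark mock, 8.68, 8.71, 8.79 and 8.66 in dark DEX, 9.38, 9.37, 9.31 and 9.29 in far-red mock, and 9.72, 9.54, 9.58 and 9.52 in far-red DEX. DEX lay below mock in darkness and above it in far-red, and in darkness the nearest arrays, mock replicate 2 and DEX replicate 3, were equal at this rounding. It fell by 0.24 in darkness (adjusted p = 0.0385), the far-red change of 0.25 was not called (adjusted p = 0.115), and the difference was 0.49 ± 0.10 (adjusted p = 0.00649). GID1B rose by 0.40 and 0.42 in the same order, a difference of 0.02. The third receptor gene, GID1C, had changes of -0.04 and 0.20 and no call.

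AT4G33980, on the circadian clock list, fell 1.70-fold in darkness and had a far-red change of 0.00 with an interval of -0.16 to 0.17 (difference 0.77 ± 0.11, adjusted p = 0.000361). Of 24 listed clock genes 3 were measured, and the other ones, GI and COR27, had no called response to DEX.

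The reverse pattern, a rise in darkness alone, was smaller in number and size. The 64 probe sets had median changes of 0.48 in darkness and -0.08 in far-red. All 64 had a far-red interval within 1.5-fold, which the sorting favours here too. In 44 of the 64 every dark DEX array read above the 12 others, against 2.15% of all probe sets, an order that the calls defining the class favour. The class held 105 probe sets without dark mock replicate 2 and 92 without far-red mock replicate 4.

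ALC is a basic helix-loop-helix transcription factor gene known for fruit opening. It read 5.66, 5.69, 5.79 and 5.29 in dark mock, 6.69, 6.82, 6.66 and 6.47 in dark DEX, 6.51, 6.38, 6.22 and 6.40 in far-red mock, and 6.33, 6.47, 6.40 and 6.37 in far-red DEX. The dark mock arrays were lowest, and dark DEX replicate 4 lay within the far-red range, so that with DEX the dark level came near that of far-red. ALC rose 2.08-fold in darkness, with a far-red change of 0.01 (interval -0.19 to 0.21) and a difference of -1.04 ± 0.14 (adjusted p = 0.000132).

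AT1G49450 read 5.08, 4.99, 5.03 and 4.78 in dark mock and 5.95, 6.05, 6.09 and 6.16 in dark DEX, against 5.02 to 5.43 in far-red mock and 5.26 to 5.48 in far-red DEX. AT3G27270 read 6.20 to 6.36 in dark mock, 7.04 to 7.53 in dark DEX and 5.13 to 5.76 on the far-red arrays. In both, the dark DEX arrays were highest and the far-red groups overlapped. Their differences were -0.91 ± 0.12 (adjusted p = 0.000184) and -0.85 ± 0.17 (adjusted p = 0.00786). The far-red change of AT1G49450 was 0.19 (interval 0.01 to 0.37, not called).

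AT2G46060 (-0.82), AT1G62510 (-0.79), AT5G54530 (-0.77) and AT4G15390 (-0.75) followed, and AT2G28780 (-0.80) lost its call in 7 of 25 settings, most without dark mock replicate 4 (adjusted p = 0.0662). AT1G62510 was much brighter in far-red mock (10.97 ± 0.10) than in dark mock (8.63 ± 0.09, SD, n = 4 each), and its far-red change of -0.30 was not called although the arrays did not overlap.

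Wall genes with a rise called in darkness alone were XTH26, of the family that cuts and rejoins xyloglucan, and TBL35, of the family that acetylates wall polymers. XTH26 read 6.12, 6.09, 6.48 and 6.52 in dark mock, 6.88, 6.97, 6.89 and 6.97 in dark DEX and 5.35 to 5.73 on the far-red arrays, with the dark DEX arrays highest. Its difference was -0.66 ± 0.15 (adjusted p = 0.0163), and it was the 1 of 10 measured XTH genes with a call. TBL35, the 1 called of 24 TBL genes (4.17%, against 1.85% of all genes), differed by -0.59 ± 0.13 (adjusted p = 0.0197). Its far-red change was 0.26 (interval 0.06 to 0.46, not called), so a smaller rise in far-red is not excluded.

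Of 19 listed root markers 8 were measured. In darkness 2 of the 8 were called, AT1G30870 and AT3G49960, which rose by 0.62 and 0.66 (2.07% of all genes rose there). None was called for the difference, and the medians over the 8 were 0.30 in darkness, -0.02 in far-red and -0.32 for the difference. The mean signal over the 8 ran from 5.74 to 6.14 in dark mock, 6.21 to 6.53 in dark DEX, 6.06 to 6.25 in far-red mock and 6.02 to 6.25 in far-red DEX. Its part in the rises in darkness was not tested. Nuclear photosynthesis genes, as markers of green tissue, had medians of 0.09 in darkness and -0.03 in far-red, and none of 9 had a called change with DEX.

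A rise in far-red alone was called for 24 probe sets. The genes counted here are represented by 12 of them, none with a symbol in the annotation used, and the other probe sets of the class are not named. Their median changes were -0.10 in darkness and 0.44 in far-red, and median signals were 8.43 in dark mock, 8.26 in dark DEX, 8.84 in far-red mock and 9.36 in far-red DEX. The far-red DEX and mock arrays did not overlap in any of the 24, against 6.41% of all probe sets. The 24 were chosen by a call on these same arrays, so their separation is no further evidence. This class rested on few arrays: leaving out replicate 3 of far-red DEX left 9 probe sets, replicate 4 left 12 and replicate 1 left 13, while leaving out replicate 2 of the mock arrays left 13 and replicate 3 left 14.

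AT1G51090 read 6.52, 6.76, 6.73 and 7.56 in far-red mock and 7.76, 7.92, 8.23 and 8.19 in far-red DEX. In the dark its signals were 5.96, 5.82, 5.55 and 5.92 in mock and 5.93, 5.46, 5.74 and 5.94 in DEX. All far-red arrays lay above all dark arrays, and mock replicate 4 came close to the far-red DEX arrays. It rose 2.19-fold in far-red and had a dark change of -0.04 (interval -0.40 to 0.31), a difference of 1.17 ± 0.24 (adjusted p = 0.00896).

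AT1G48100 rose by 0.54 in far-red and stood at -0.37 in darkness (interval -0.61 to -0.12, adjusted p = 0.0745), a difference of 0.91 ± 0.17 (adjusted p = 0.00326). AT2G21510 rose by 0.62 in far-red with a dark change of -0.06 (difference 0.68 ± 0.12, adjusted p = 0.00201). AT2G24560 rose 1.77-fold in far-red (difference 0.88, adjusted p = 0.0217) and lost the call for the difference in 4 of 25 settings. Its dark means, 3.93 and 3.87, lay under the lower quartile of the arrays, so a dark response could be hidden in background.

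AT1G16850 and AT1G78070 had differences of 0.68 and 0.52, and AT3G28220 of 0.54, which lost its call in 12 of 25 settings (adjusted p up to 0.0869). In AT1G16850 and AT1G78070 all 4 dark DEX arrays also read below dark mock, by means of 0.24 and 0.19, although the dark changes were not called (adjusted p = 0.116 and 0.151).

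A fall in far-red alone was called for 5 probe sets, of which 3 represent a gene each. AT3G48970 read 10.74, 10.68, 10.51 and 10.30 in far-red mock and 10.05, 10.10, 10.03 and 10.04 in far-red DEX, and 11.48 to 11.61 in dark mock and 11.62 to 11.92 in dark DEX. The far-red DEX arrays were the lowest of all and the dark arrays the highest, with no overlap within either light. It fell 1.42-fold in far-red and stood at 0.23 in darkness (adjusted p = 0.151), a difference of -0.73 ± 0.12 (adjusted p = 0.00125). AT2G35585 (-0.51 ± 0.10, adjusted p = 0.00485) had the same order of groups. AT5G63620 (-0.44 ± 0.10, adjusted p = 0.0149) fell by 0.39 in far-red, but its far-red DEX arrays (10.85 to 10.95) lay above all dark arrays (10.37 to 10.69), and its dark groups overlapped. The class held 2 probe sets without far-red DEX replicate 1 or 3, 3 without far-red mock replicate 1 and 10 without far-red mock replicate 4.

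Opposite calls in the 2 lights were made for 4 genes. AT1G15010 read 6.49, 6.71, 6.41 and 6.90 in dark mock, 6.30, 5.96, 6.10 and 6.52 in dark DEX, 9.62, 9.74, 9.68 and 9.70 in far-red mock, and 10.50, 10.50, 10.43 and 10.64 in far-red DEX. The dark groups overlapped and the far-red groups did not. It fell 1.33-fold in darkness (adjusted p = 0.0246) and rose 1.78-fold in far-red, which gave a difference of 1.24 ± 0.15 (adjusted p = 7.40e-05). AT5G46710 fell by 0.55 and rose by 0.38, with no overlap within either light (difference 0.93 ± 0.13, adjusted p = 0.000184).

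ATL8, a RING finger ubiquitin ligase gene that sugar starvation and darkness are known to raise, went the other way. It read 7.97, 8.16, 7.93 and 8.11 in dark mock, 8.50, 8.39, 8.39 and 8.32 in dark DEX, 8.61, 8.50, 8.41 and 8.60 in far-red mock, and 8.22, 7.98, 8.0 and 8.23 in far-red DEX. DEX and mock arrays were apart in both lights, in opposite directions. The gene rose 1.28-fold in darkness and fell 1.34-fold in far-red, which gave a difference of -0.78 ± 0.11 (adjusted p = 0.000273). It was the 1 called gene of 6 measured genes listed by a RING or ATL name (1.85% of all genes were called). RING ligase genes without such a name in the annotation were not counted. AT4G38690 rose by 0.23 and fell by 0.27 (difference -0.50 ± 0.09, adjusted p = 0.00223).

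**Figure D5:**
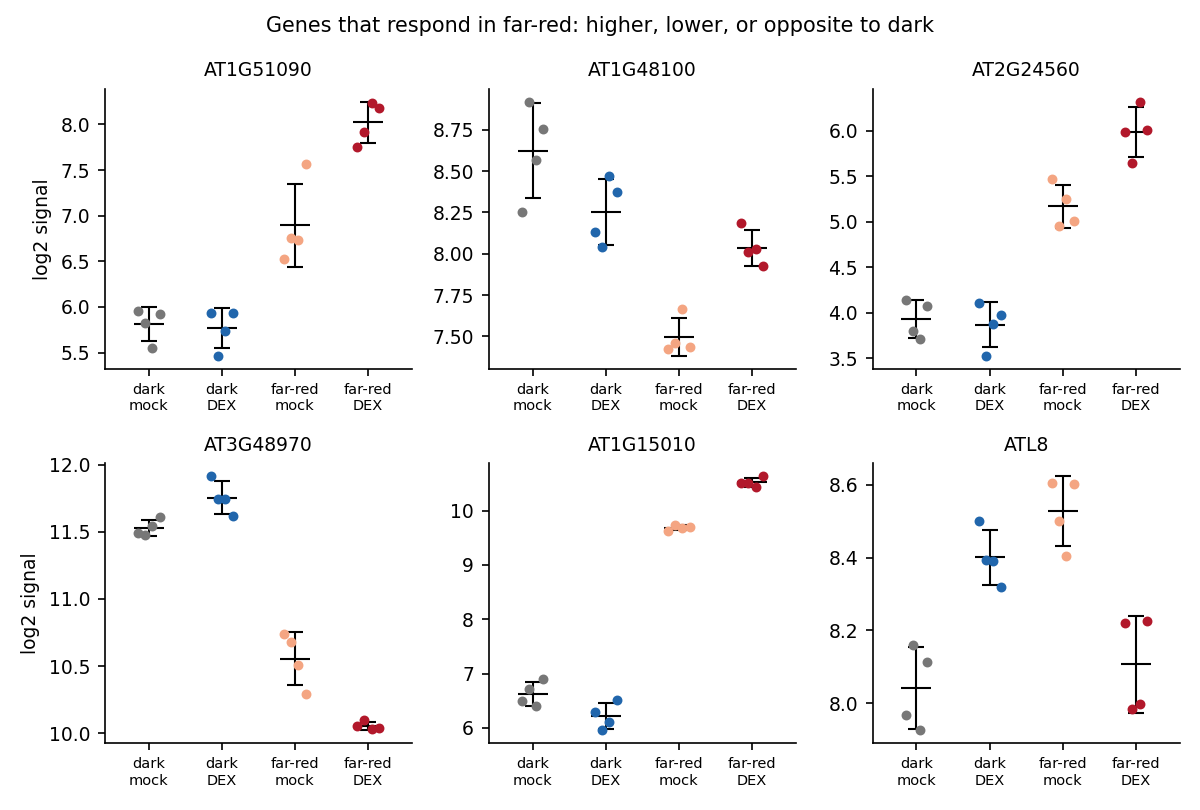
Log2 signals of single arrays (points) with mean and SD of 4 arrays (bars) are shown by group for 3 genes that rose in far-red alone, AT3G48970, which fell there alone, and AT1G15010 and ATL8, with opposite calls. For ATL8 dark DEX arrays lie above dark mock and far-red DEX arrays, 7.98 to 8.23, below far-red mock.

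Sugar exporters of the SWEET family were among the genes with a more positive response in darkness. SAG29, also known as SWEET15 and a marker of leaf ageing, rose in both lights, 2.37-fold in darkness and 1.34-fold in far-red (difference -0.82 ± 0.12, adjusted p = 0.000325). Its means were 8.15 ± 0.19 in dark mock, 9.40 ± 0.09 in dark DEX, 9.02 ± 0.07 in far-red mock and 9.43 ± 0.08 in far-red DEX (SD, n = 4 each), so the DEX groups were close to each other and the mock groups apart. SWEET11, which loads sugar for transport in the phloem, had changes of 0.24 and -0.27 that were called in neither light and a difference of -0.51 ± 0.10 (adjusted p = 0.00666). These were the called genes among 18 measured transporters of the list (1.85% of all genes were called). SAG29 and ATL8 were also the called genes among 7 measured of 35 listed sugar starvation and dark-induced genes.

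The 14 probe sets that rose in both lights with a called difference all rose more in darkness, with medians of 1.22 there and 0.46 in far-red. AT2G42900 had the most negative difference of all named genes. It read 6.32, 6.37, 6.28 and 6.63 in dark mock, 8.64, 8.81, 8.73 and 8.86 in dark DEX, 5.93, 6.23, 6.45 and 5.79 in far-red mock, and 7.18, 7.23, 7.31 and 7.28 in far-red DEX. The mock groups overlapped, the far-red DEX arrays lay between them and dark DEX, and the rise was 5.13-fold in darkness and 2.22-fold in far-red (difference -1.21 ± 0.16, adjusted p = 0.000126). AT1G11700 rose 2.62-fold and 1.59-fold (difference -0.72 ± 0.12, adjusted p = 0.00189), and AT1G50660 2.03-fold and 1.40-fold (difference -0.53 ± 0.10, adjusted p = 0.00583).

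AT2G41990, which rose most in both lights, 7.65-fold in darkness and 4.78-fold in far-red, had a difference of -0.68 ± 0.19 that was not called (adjusted p = 0.0648), though it was in 6 of 25 alternative settings. FHL, the partner of FHY1 in phytochrome A import, fell in darkness and was not called in far-red, where its interval was -0.58 to -0.05. Its difference of 0.66 ± 0.18 missed the threshold (adjusted p = 0.0612) and passed it in 4 of 25 settings, lowest without dark mock replicate 2 (adjusted p = 0.00201). HEMB1, which acts early in the making of chlorophyll and heme, had a difference of 0.07 ± 0.08.

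Several functions had no measured gene with a called difference. They were tetrapyrrole synthesis (9 genes measured, median difference 0.00), nuclear photosynthesis (9, -0.10), flavonoid synthesis (4, -0.02), jasmonate (3, 0.22), abscisic acid and cold response (5, 0.07), pectin enzymes (5, 0.17), glutathione transferases (13, -0.10), bZIP factors (21, -0.04), nitrate and peptide transporters (12, -0.03) and histones (8, -0.02). At the background share of 1.85%, lists of these sizes would hold under 1 called gene each, so the lack of calls here says little. The 5 measured abscisic acid and cold genes had medians of 0.04 in darkness and 0.34 in far-red. Of 27 listed light signalling genes 3 were measured: FHL, and HYH and AT1G18810, which had no call in either light.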

How the data were processed

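RNA of 16 seedling samples was hybridised to Affymetrix ATH1 arrays, 4 for each combination of light and treatment. Sample titles gave the groups and replicate numbers, and the series' design text calls the arrays independent biological replicates. The authors deposited log2 signals per probe set, which they had summarised and normalised with RMA in the affy package, per the submitters' processing notes; the version and settings were not given in the sources used here. The medians of the arrays were nearly equal, which would hide a shift shared by the whole transcriptome. Background and detection calls were not used here, and the number of arrays limits the precision. No array was dropped and 0 columns were left unused.

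A linear model with 1 mean for each group was fitted to all 22746 non-control probe sets with limma 3.58.1 in R 4.3.3 (lmFit, contrasts.fit and eBayes, default settings, 19.6 degrees of freedom including the prior). Moderated two-sided p-values received the Benjamini-Hochberg adjustment over all 22746, and adjusted p under 0.05 was called. All adjusted p-values of genes come from this fit unless another setting is named, and intervals are 95% intervals of the fit. The difference uses the arrays of both DEX comparisons, which share none with each other. On simulated data the fit called 40 of 100 probe sets given a difference of 0.5 on the log2 scale and 92 of 100 given 1.0.

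Of the probe sets, 13513 are paired with 1 gene in the platform annotation and stand for 13355 genes (the brightest probe set of each); 503 are paired with several genes and 8730 are unnamed here. RefSeq names (TAIR10.1) were found by gene ID for 13436 and used for naming only. Genes named were the 12 largest called differences of each sign, up to 8 of each response class, up to 4 of each gene list, and FHL, HEMB1 and AT2G41990; exceptions are marked. The comparison, the gene lists and the rule were chosen with earlier results of these data known, and family name patterns were corrected, and ill-fitting lists dropped, after the annotation and values had been seen. No list was tested as a set. No sequence is shown.

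Alternatives were a replicate block, leaving out each array, quantile normalisation, median centring, a trended and robust variance prior, array weights, leaving out dim probe sets, single-gene probe sets only, other thresholds, fits within a light, and another choice of probe set. Arrays of the same number in different groups deviated together only weakly. Of 24 such pairs 7 correlated above 0.1, and the correlations ran from -0.15 to 0.32 (mean 0.05, against -0.02 for different numbers). The numbers were not taken to pair samples, but these values do not exclude a partial pairing. Counts with a replicate block are given below.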

Additional observations from a re-analysis of the deposited data

Results flagged for a closer look

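A response to DEX that differed between far-red and darkness by the test of the difference itself was found for 67 of the genes described, given here as log2 differences of responses. Among those lower in darkness alone, the differences above 1 were those of AT1G20310 (2.20), BGLU19 (2.13), AT5G42200 (2.11), PDF2.1 (2.07), AT2G28490 (1.88), AT4G02170 (1.83), AT2G43590 (1.83), AT2G15010 (1.81), AT2G41730 (1.74), LCR67 (1.68), AT2G34400 (1.65), AT4G33140 (1.62), CML38 (1.55), M17 (1.5), PAP85 (1.42), AT3G23170 (1.35), AT4G30380 (1.28) and PDC2 (1.19). Smaller ones in the same class were PUB19 (0.97), AT1G76640 (0.94), WRKY22 (0.94), TIL (0.89), GAUT15 (0.85), STZ (0.84), AT4G33980 (0.77), UGT73B4 (0.76), PUB22 (0.73), PUB23 (0.70), WRKY6 (0.68), PRX52 (0.67), LEA18 (0.65), AT3G17520 (0.62), LEA4-5 (0.61), WES1 (0.60), GID1A (0.49) and UGT71C1 (0.41). The genes higher in darkness alone were ALC (-1.04), AT1G49450 (-0.91), AT3G27270 (-0.85), AT2G46060 (-0.82), AT2G28780 (-0.80), AT1G62510 (-0.79), AT5G54530 (-0.77), AT4G15390 (-0.75), XTH26 (-0.66) and TBL35 (-0.59). Those higher in far-red alone were AT1G51090 (1.17), AT1G48100 (0.91), AT2G24560 (0.88), AT2G21510 (0.68), AT1G16850 (0.68), AT3G28220 (0.54) and AT1G78070 (0.52), and those lower there alone were AT3G48970 (-0.73), AT2G35585 (-0.51) and AT5G63620 (-0.44). Higher in both lights, and more so in darkness, were AT2G42900 (-1.21), SAG29 (-0.82), AT1G11700 (-0.72) and AT1G50660 (-0.53). Calls in opposite directions went with the differences of AT1G15010 (1.24) and AT5G46710 (0.93) and of ATL8 (-0.78) and AT4G38690 (-0.50). Called in neither light alone were CML37 (0.61), SWEET11 (-0.51) and BGLU40 (0.47).

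In 22 of the 280 groups of 4 arrays behind these 70 genes, an array lay further from the other 3 than Dixon's 95% limit allows. Chance flags about 1 in 20 groups. The values below are log2 signals, each with the range of the other 3 arrays. In dark mock the arrays apart were those of AT1G20310 in replicate 2 (6.61, below 7.13 to 7.17), AT3G23170 in replicate 2 (9.35, below 9.85 to 9.91) and LEA18 in replicate 3 (7.69, below 7.94 to 7.95). In dark DEX they were those of AT2G34400 in replicate 3 (7.0, above 6.46 to 6.52), AT2G41730 in replicate 3 (7.04, above 6.53 to 6.61), AT4G30380 in replicate 4 (7.54, below 8.04 to 8.14), CML38 in replicate 4 (9.36, below 9.85 to 9.95), FHL in replicate 4 (9.18, below 9.51 to 9.55), PDF2.1 in replicate 4 (4.95, below 5.17 to 5.21), PUB19 in replicate 3 (7.11, above 6.81 to 6.86) and UGT71C1 in replicate 2 (9.59, below 9.68 to 9.69). In far-red mock they were those of AT1G48100 in replicate 3 (7.67, above 7.43 to 7.46), AT2G28780 in replicate 3 (4.68, below 5.14 to 5.19), AT2G41730 in replicate 4 (8.96, above 8.26 to 8.37), AT2G41990 in replicate 3 (6.89, above 6.52 to 6.55), AT5G63620 in replicate 2 (11.35, above 11.26 to 11.28), BGLU19 in replicate 4 (8.60, above 8.04 to 8.13) and WRKY6 in replicate 1 (8.91, above 8.74 to 8.77). In far-red DEX they were those of AT1G50660 in replicate 4 (7.36, below 7.51 to 7.53), AT2G15010 in replicate 2 (7.29, below 8.02 to 8.11), AT3G27270 in replicate 1 (5.27, below 5.62 to 5.63) and PRX52 in replicate 2 (5.58, below 6.26 to 6.34). No explanation was tested for them.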

How the results depend on the processing

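No alternative turned the direction of the difference for any of the 70 genes examined in 25 settings each. Of the 67 with a called difference, 55 lost it in no setting other than the 1.5-fold minimum. In the order positive differences, negative differences, higher and lower in darkness, higher and lower in far-red, then lower and higher in darkness alone and higher and lower in far-red alone, leaving out 1 array gave counts of 292 to 515, 76 to 154, 406 to 585, 639 to 899, 145 to 213, 15 to 36, 267 to 450, 45 to 105, 9 to 25 and 2 to 10. Low-oxygen genes with a called difference numbered 16 to 22. The 154 and the 105 were reached without dark mock replicate 2, and the 515 and the 450 without far-red mock replicate 4.

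Using the brightest single-gene probe sets, with fewer features tested, the same 10 counts were 197, 43, 265, 398, 108, 16, 175, 26, 10 and 3. A minimum of 1.5-fold left 39 negative differences, 137 higher and 283 lower in darkness, 67 higher and 2 lower in far-red, 28 higher in darkness alone, and 10 higher and 1 lower in far-red alone. At an adjusted p under 0.1 there were 225 negative differences, 61 lower in far-red, 136 higher in darkness alone, and 39 higher and 11 lower in far-red alone. The trended and robust prior gave 55 lower in far-red and 37 higher and 11 lower in far-red alone. Array weights gave 158 negative differences and 11 lower in far-red alone. A fit of the far-red arrays by themselves gave 17 lower; for these changes the cause was not tested. With the replicate number as a block, 419 positive and 119 negative differences were called, 562 and 850 in darkness, 204 and 32 in far-red, 370, 73, 25 and 6 in the 4 single-light classes, and 19 low-oxygen genes, all within 1.5 times the counts without it. Quantile normalisation, median centring and leaving out dim probe sets kept every count within 1.5 times.

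The median standard error of a difference was 0.119 on the log2 scale, against 0.0843 for a DEX change in a single light, so a response called in a single light can miss the test of the difference.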

Other observations

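All 31 probe sets with a called difference and no call in either light had changes of opposite sign in the 2 lights. The difference was positive in 14 and negative in the others. The sorting sets this outcome: at the thresholds used, 2 uncalled changes of the same sign cannot differ enough for a call. The opposite signs are therefore no finding of their own. Of the 31, 15 represent a gene each here, CML37, BGLU40 and SWEET11 among them.

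Most of the response in darkness was not shown to be particular to darkness. Of the 809 probe sets that fell there, 461 had no called difference, with median log2 changes of -0.39 in darkness and -0.06 in far-red. Of the 533 that rose in darkness, 453 had no called difference, with medians of 0.41 and 0.16 in the same order. Of the 209 that rose in far-red, 167 had none, with medians of 0.50 in darkness and 0.47 in far-red. All 10 probe sets that fell in both lights lacked a called difference, with medians of -0.44 in darkness and -0.38 in far-red.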
